A study of Mus musculus with 8 samples.

Results

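Granulocyte-monocyte progenitor genes were followed through 8 Affymetrix arrays of mouse embryonic and hematopoietic stem cells with and without the zinc finger transcription factor Zfx. The set comprises 10 genes, namely Mpo, Elane, Prtn3, Ctsg, Cebpa, Cebpe, Csf1r, Irf8, Lyz2 and Ms4a3, and its members are the probe sets whose platform annotation gives one of these symbols alone. The rule found 12 of the 45037 non-control probe sets, for 9 of the 10 genes, and Cebpe was not analysed here. The rule matches symbols and uses no measured value, though the genes were proposed with earlier results of these data known.

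The 4 groups held 2 arrays each. HSC Zfx-cko came from the Lin- Sca-1+ c-Kit+ gate of marrow of Mx1-Cre+ Zfx flox/y mice, the Mx1 promoter making Cre inducible by interferon, and HSC Zfx-flox from that gate in Zfx flox/y littermates without Cre. Marrow of 4 to 6 mice was pooled 4 days past the last pI·C injection, which both HSC groups had received. Cre was thus present in HSC Zfx-cko alone, and an effect of Cre cannot be told apart from that of Zfx loss. ESC Zfx-null and ESC Zfx-flox were embryonic stem cell clones grown without feeders in serum replacement with LIF. How many clones an array stands for was not stated. HSC RNA went through 2 rounds of linear amplification and ESC RNA through 1, so cell type and amplification cannot be told apart. The series text speaks of duplicate hybridizations, so p-values reflect array-to-array spread alone, and that spread may be technical.

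Values are scaled signals in arbitrary units. Each array had a trimmed mean of 250, a median of 38.4 to 66.5, and 69.4% to 78.9% of its probe sets above 14.2, the pseudocount added before taking logarithms. In the HSC arrays the sorting marker Kit read 1462 and 1390 in Zfx-cko and 1122 and 1174 in Zfx-flox (log2 change 0.31, called higher, limma adjusted p = 0.0226). The lineage markers Itgam and Cd3e stayed below 14.2 on all 4 HSC arrays, and the B cell gene Cd79a read 29.6 and 26.2 in Zfx-cko and 27.3 and 12.2 in Zfx-flox. For Zfx, 4 probe sets carried its symbol alone. The brightest in HSC, 1425972_a_at, gave 1192 and 1209 in Zfx-cko and 696 and 752 in Zfx-flox (called higher, limma adjusted p = 0.000736). The next, 1419565_a_at, gave 97.4 and 84.7 in Zfx-cko and 108.8 and 162 in Zfx-flox (did not pass). In ESC all 4 were called higher in Zfx-null, with log2 changes of 0.79 to 1.65. Of those annotated to Zfx and a pseudogene, 1422249_s_at read 1.32 and 0.878 in ESC Zfx-null and 285 and 298 in ESC Zfx-flox, but at most 7.22 on any HSC array. The others annotated so did not fall in ESC, where 1428047_s_at was called higher in Zfx-null (log2 change 1.33) and 1439404_x_at did not pass. The position of these probes relative to the deletion was not stated, so none of them checks the deletion in HSC. The 5′ to 3′ log2 signal ratio of the Gapdh control probe sets was −4.68 and −4.39 in HSC Zfx-cko and −4.18 and −4.25 in HSC Zfx-flox, and its part in the results below was not tested.

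Granulocyte-monocyte progenitors descend from multipotent progenitors and give rise to neutrophils, monocytes and some dendritic cells. They transcribe genes of azurophil (primary) granule proteins, among them myeloperoxidase and a family of serine proteases. C/EBP factors, PU.1 (encoded by Spi1), Runx1 and Myb control these genes. Irf8 steers cells towards the monocyte and dendritic fates and Cebpe towards late granulocyte stages, while Csf1r is the receptor for macrophage colony-stimulating factor. The cells themselves lack Sca-1 and lie outside the sort gate, and multipotent cells inside it are known to carry low levels of myeloid transcripts.

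On the deposited scale most granulocyte-monocyte genes read moderately higher in Zfx-cko HSC, while Ms4a3 and Elane read lower. Most of these changes did not pass, and the direction of Prtn3 and of the dimmer Csf1r probe sets rests on the scaling. Lyz2 rose 2.50-fold in linear means, Cebpa 1.78-fold and Ctsg 1.43-fold, whereas Ms4a3 fell to 0.732 of its Zfx-flox level. Of the 12 member probe sets, all of which passed the filter on dim signals in HSC, 3 rose, 1 fell and 8 did not pass at an adjusted p of 0.05. Over all 27022 probe sets tested, 37.7% were called, 21.7% higher and 16% lower, so the share of members called lay near the background. The arrays of both groups did not overlap for 11 of the 12 member probe sets, against 70.4% of all probe sets tested. The median log2 change of the members was 0.29, against 0.06 for all probe sets tested.

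Which members pass depends strongly on the arrays that supply the spread. The joint fit pools the spread over both cell types. With limma fitted to the 4 HSC arrays alone, 8 member probe sets were higher, 2 were lower and 2 did not pass, against 42.3% of all probe sets called (24.7% higher and 17.6% lower). The median standard error of a member's log2 change was 0.202 in the joint fit and 0.0774 with HSC arrays alone. The joint standard error includes the spread between ESC arrays, where most members are dim. Irf8 1416714_at read 15.0 and 44.4 in ESC Zfx-flox, against 296 and 314 in HSC Zfx-flox. For Csf1r 1423593_a_at the standard error was 0.271 in the joint fit and 0.286 with HSC arrays alone. A member that did not pass in the joint fit is thus judged by the spread of both cell types. The part of the ESC arrays in the difference was not tested.

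**Figure D1:**
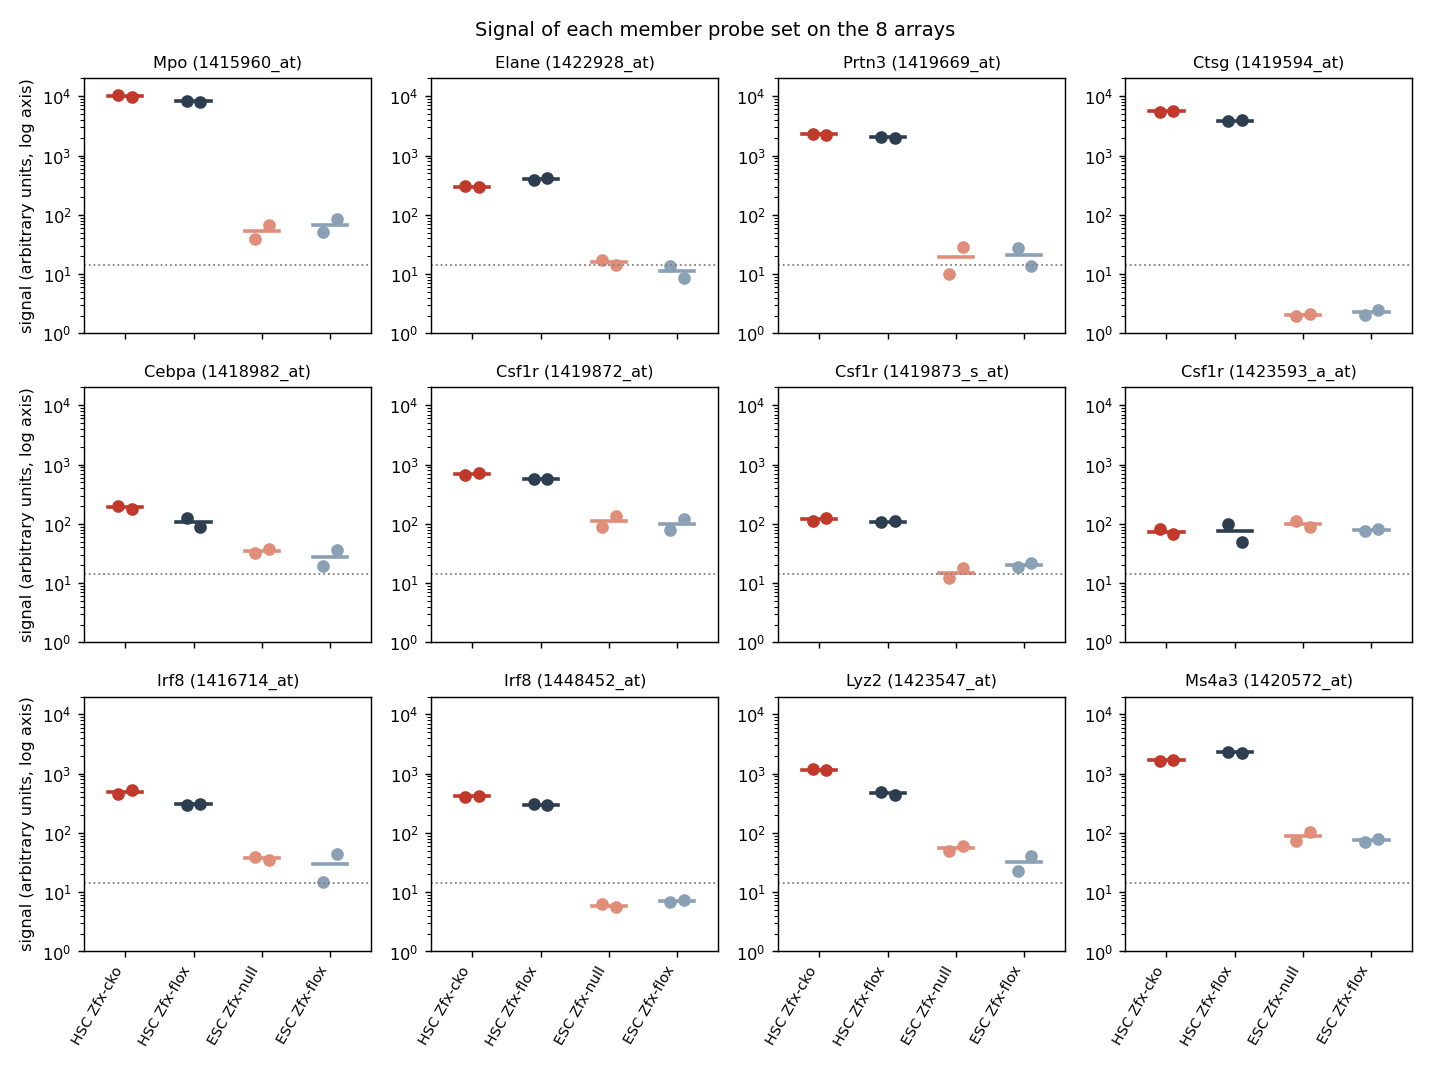
Signal of each member probe set (arbitrary units, log axis) on the 2 arrays of each group, with lines at the group means and a dotted line at the pseudocount of 14.2. In HSC the Zfx-cko points of Lyz2 (1177 and 1153) lie above the Zfx-flox points (494 and 438), those of Ms4a3 lie below, and most members are far lower in both ESC groups.

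Promoters are shown for the granule genes and for Ms4a3 so that the genes called higher (Ctsg, Lyz2) or lower (Ms4a3) can be read beside granule genes that did not pass (Mpo, Elane, Prtn3). Each sequence runs from 250 bases before to 50 bases after the annotated gene start (RefSeq, GRCm38.p6), 5′ to 3′ on the gene's strand. Capitals mark the PU.1 motif GAGGAAGT in Mpo, Elane and Prtn3 and the C/EBP motif TTGCNNAA in Ms4a3. Ctsg and Lyz2 hold neither in these exact letters (N being any base). Near matches, such as AAGGAAGT in Ctsg, were not searched, so a promoter without capitals may still hold a site in other letters.
Mpo (chr11:87793534-87793833, plus strand): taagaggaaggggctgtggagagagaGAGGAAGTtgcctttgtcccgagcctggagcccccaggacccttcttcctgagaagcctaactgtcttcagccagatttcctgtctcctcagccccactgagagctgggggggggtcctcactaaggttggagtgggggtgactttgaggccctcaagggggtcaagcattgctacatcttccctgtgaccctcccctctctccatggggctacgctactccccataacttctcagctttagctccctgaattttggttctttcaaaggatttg
Elane (chr10:79886062-79886361, plus strand): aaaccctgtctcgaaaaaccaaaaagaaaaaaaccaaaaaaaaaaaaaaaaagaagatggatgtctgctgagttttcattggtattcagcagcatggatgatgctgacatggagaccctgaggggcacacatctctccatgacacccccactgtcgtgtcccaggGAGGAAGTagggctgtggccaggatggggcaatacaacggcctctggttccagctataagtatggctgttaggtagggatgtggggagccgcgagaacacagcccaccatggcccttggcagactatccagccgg
Prtn3 (chr10:79879417-79879716, plus strand): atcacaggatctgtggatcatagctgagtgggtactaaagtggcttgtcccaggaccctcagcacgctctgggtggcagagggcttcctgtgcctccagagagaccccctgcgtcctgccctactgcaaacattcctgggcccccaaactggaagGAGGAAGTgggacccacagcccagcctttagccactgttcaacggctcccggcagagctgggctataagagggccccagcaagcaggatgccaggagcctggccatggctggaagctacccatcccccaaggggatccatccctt
Ctsg (chr14:56102525-56102824, minus strand): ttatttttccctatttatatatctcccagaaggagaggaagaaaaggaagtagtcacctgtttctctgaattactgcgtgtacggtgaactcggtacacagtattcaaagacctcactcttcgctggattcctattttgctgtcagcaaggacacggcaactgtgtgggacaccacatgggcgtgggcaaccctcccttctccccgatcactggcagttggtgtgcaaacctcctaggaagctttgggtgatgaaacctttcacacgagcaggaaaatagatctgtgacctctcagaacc
Lyz2 (chr10:117282223-117282522, minus strand): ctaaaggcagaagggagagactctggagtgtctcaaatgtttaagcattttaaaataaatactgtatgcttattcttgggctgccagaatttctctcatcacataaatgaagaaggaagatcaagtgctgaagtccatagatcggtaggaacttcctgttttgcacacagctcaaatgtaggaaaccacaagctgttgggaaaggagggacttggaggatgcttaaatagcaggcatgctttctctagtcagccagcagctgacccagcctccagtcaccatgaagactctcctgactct
Ms4a3 (chr19:11640802-11641101, minus strand): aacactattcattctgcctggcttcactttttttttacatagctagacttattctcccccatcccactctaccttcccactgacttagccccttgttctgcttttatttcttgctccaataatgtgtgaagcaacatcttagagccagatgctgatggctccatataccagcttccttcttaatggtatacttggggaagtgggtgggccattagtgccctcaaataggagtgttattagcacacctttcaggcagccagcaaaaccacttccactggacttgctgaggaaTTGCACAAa

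Promoters of 8 of the 10 genes were searched, 9 promoters in all since Irf8 had 2. None was available for Cebpe, and Csf1r was left out by a rule on its chromosome (18). The background promoters were not filtered by chromosome. Motifs were searched on both strands. GAGGAAGT stood in 3 of the 9, first base 224, 85 and 95 bases before the start of Mpo, Elane and Prtn3, and in 3.2% of all 32851 promoters of that length. TTGCNNAA stood in 1 of the 9, Ms4a3, from base 42 after the start, and in 10.8% of all promoters. The short Myb motif AACNG stood in 8 of the 9 and in 80.3% of all promoters. In the member promoters no match overlapped a match of another motif. The 3 genes with GAGGAAGT did not pass in the joint fit and went different ways, Mpo and Prtn3 above and Elane below the Zfx-flox arrays.

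Mpo encodes myeloperoxidase, the heme enzyme of azurophil granules that makes hypochlorous acid. It read 10524 and 9808 in HSC Zfx-cko and 8299 and 8137 in HSC Zfx-flox. Both Zfx-cko arrays lay above both Zfx-flox arrays, by a log2 change of 0.31 ± 0.21 (SE, 95% interval −0.16 to 0.77) that did not pass (adjusted p = 0.291). With HSC arrays alone the standard error was 0.0456 and the adjusted p 0.0015. In ESC it read 39.1 and 66.3 in Zfx-null and 51.4 and 83.7 in Zfx-flox, where the arrays overlap.

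Ctsg, Elane and Prtn3 encode cathepsin G, neutrophil elastase and proteinase 3, homologous serine proteases stored together in azurophil granules. Ctsg read 5465 and 5669 in HSC Zfx-cko and 3838 and 3945 in HSC Zfx-flox, and rose by a log2 change of 0.52 ± 0.10 (SE, adjusted p = 0.00265). It was below 14.2 on all 4 ESC arrays, at 1.93 to 2.51. The call was lost without a pseudocount (adjusted p = 0.0584) and held under the other 20 alternatives. Prtn3 read 2320 and 2250 in HSC Zfx-cko and 2025 and 2010 in HSC Zfx-flox (2285 ± 49.2 and 2017 ± 10.2, SD, n = 2). Its arrays did not overlap, and the log2 change of 0.18 ± 0.26 did not pass (adjusted p = 0.639, and 0.0194 with HSC arrays alone). Median centring of the arrays brought it to −0.01, so its direction rests on the scaling.

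Elane went the other way. It read 301 and 292 in HSC Zfx-cko and 386 and 423 in HSC Zfx-flox, with no overlap. The log2 change was −0.43 ± 0.18 (95% interval −0.83 to −0.03, adjusted p = 0.0867, and 0.00611 with HSC arrays alone). Other scalings gave an adjusted p of 0.037 (quantiles matched within a cell type), 0.0485 (quantiles matched over all arrays) and 0.021 (median centring). It was 0.181 with a pseudocount at the 10th percentile and 0.256 without one. Elane passed in 6 of the 21 alternatives, with log2 changes of −0.62 to −0.37. Prtn3 (chr10:79879667-79883174) and Elane (chr10:79886312-79888216) are neighbours, 3137 bases apart with no annotated gene between them. The difference between their changes was not tested.

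Lyz2 encodes lysozyme M, an antibacterial enzyme of granulocytes and macrophages. It read 1177 and 1153 in HSC Zfx-cko and 494 and 438 in HSC Zfx-flox, the widest separation among the members. It rose by a log2 change of 1.30 ± 0.19 (SE, 95% interval 0.87 to 1.72, adjusted p = 0.000611), and the call held under all 21 alternatives run, with a log2 change of 1.11 to 1.38. Transcripts of its close relative Lyz1 can bind the same probes. Of the Lyz1 probe sets 1436996_x_at read 4812 and 4778 in Zfx-cko and 1954 and 2079 in Zfx-flox (log2 change 1.24 ± 0.19, adjusted p = 0.000759), and 1439426_x_at rose by 1.82 ± 0.25. The third, 1450822_at, was too dim to test, at 9.74 to 34.0 on the HSC arrays. Signals of both lysozyme genes therefore cannot be assigned to one of them with certainty.

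Ms4a3 encodes a four-span membrane protein that marks committed granulocyte-monocyte progenitors and their progeny. It read 1620 and 1731 in HSC Zfx-cko and 2319 and 2258 in HSC Zfx-flox. It fell by 0.45 ± 0.13 on the log2 scale (adjusted p = 0.0271), the only member called lower in the joint fit. The adjusted p was 0.142, 0.0779, 0.121 and 0.0965 without Zfx-cko replicate 1, Zfx-cko replicate 2, Zfx-flox replicate 1 and Zfx-flox replicate 2 of HSC, and the log2 change ran between −0.49 and −0.40 in these fits.

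The transcription factor Cebpa starts the granulocyte-monocyte programme. It read 199 and 181 in HSC Zfx-cko and 127 and 87.4 in HSC Zfx-flox. The Zfx-flox arrays differed among themselves, yet both lay below the Zfx-cko arrays, and the log2 change was 0.77 ± 0.24 (SE, adjusted p = 0.0338). That call was lost without HSC Zfx-cko replicate 1, HSC Zfx-cko replicate 2 or HSC Zfx-flox replicate 2 (adjusted p = 0.154, 0.0971 and 0.212). It was also lost with each of the 3 other scalings (adjusted p of 0.0719 to 0.0818, log2 change of 0.57 to 0.60), and across the 21 alternatives it held in 12.

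Irf8 was read by 2 probe sets of the same gene (chr8:120736358-120756694), which agreed in direction. The first, 1416714_at, read 460 and 536 in HSC Zfx-cko and 296 and 314 in HSC Zfx-flox (log2 change 0.68 ± 0.28, adjusted p = 0.0839). The second, 1448452_at, read 403 and 421 in HSC Zfx-cko and 302 and 299.8 in HSC Zfx-flox (log2 change 0.44 ± 0.17, adjusted p = 0.067). No Zfx-cko array overlapped a Zfx-flox array for either probe set, and neither passed in the joint fit. With HSC arrays alone the adjusted p was 0.00119 and 0.00397. For 1416714_at the ESC Zfx-flox arrays differed most, at 15.0 and 44.4. Over the alternatives 1416714_at passed in 4 of 21 (log2 changes of 0.49 to 0.79) and 1448452_at in 3 of 19 (0.25 to 0.46).

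Csf1r was read by 3 probe sets that differed in level. The brightest, 1419872_at, gave 669 and 713 in HSC Zfx-cko and 581 and 561 in HSC Zfx-flox (log2 change 0.27 ± 0.20, adjusted p = 0.341, and 0.0174 with HSC arrays alone). The second, 1419873_s_at, gave 114 and 127 in Zfx-cko and 107 and 109.7 in Zfx-flox (log2 change 0.14 ± 0.20, adjusted p = 0.651). The third, 1423593_a_at, overlapped between the HSC groups, at 80.6 and 66.7 in Zfx-cko and 100.2 and 49.1 in Zfx-flox, and was as bright in ESC. The probe sets 1419873_s_at and 1423593_a_at changed sign under the other scalings, so no direction is given for them.

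**Figure D2:**
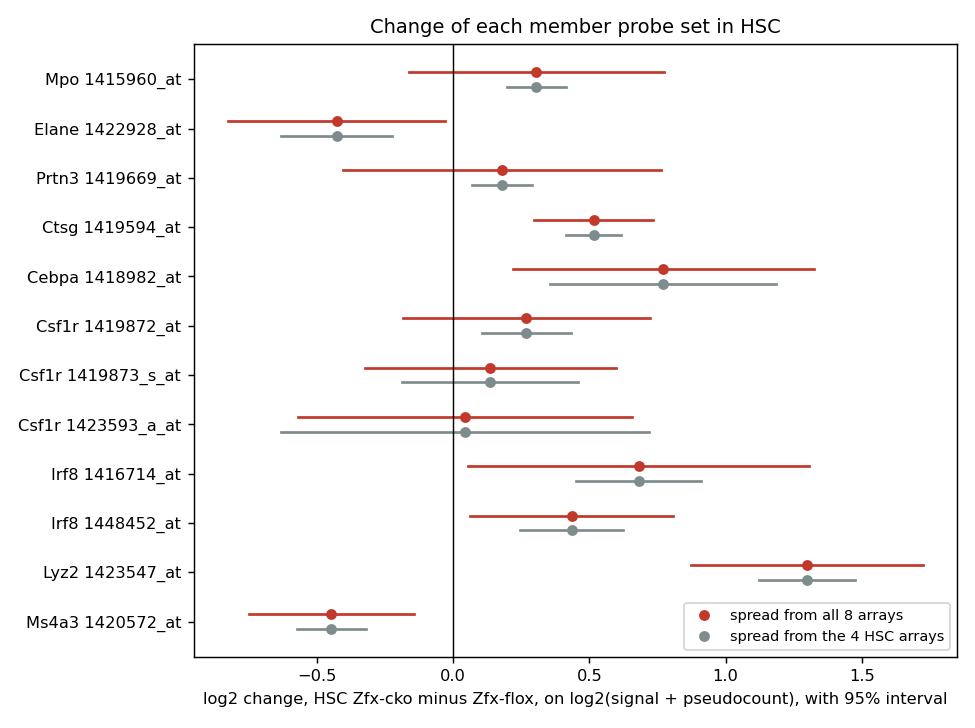
Log2 change of each member probe set in HSC, Zfx-cko minus Zfx-flox, on log2(signal + 14.2), with 95% intervals from the fit of all 8 arrays and from the fit of the 4 HSC arrays. The points coincide between fits while most intervals narrow with HSC arrays alone, and the intervals of Lyz2 (1.30), Ctsg (0.52), Cebpa (0.77), Ms4a3 (−0.45), Elane (−0.43) and both Irf8 probe sets (0.68 and 0.44) leave out 0 in both fits, without adjustment for the number of tests.

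In ESC the granulocyte-monocyte genes were dim, and 5 of the 12 member probe sets passed the filter, for Mpo, Lyz2, Ms4a3 and Csf1r (2 probe sets). Lyz2 read 49.3 and 60.2 in ESC Zfx-null and 22.5 and 41.0 in ESC Zfx-flox, and rose by a log2 change of 0.61 ± 0.19 (SE, adjusted p = 0.044), against 25% of all probe sets called in ESC (12.2% higher). The call was lost without any of the HSC arrays (adjusted p = 0.0733, 0.0735, 0.0631 and 0.0629 without Zfx-cko replicate 1, Zfx-cko replicate 2, Zfx-flox replicate 1 and Zfx-flox replicate 2). Without ESC Zfx-flox replicate 1 the log2 change was 0.32 (adjusted p = 0.197). Without either ESC Zfx-null array the probe set fell below the filter. It was thus tested only through the arrays where it read higher, and the call is not independent of the filter. The arrays of the ESC groups did not overlap for 2 of the 5, against 62.2% of all probe sets. The other 4 did not pass, with log2 changes of −0.29 for Mpo, 0.21 for Ms4a3 and 0.14 and 0.31 for Csf1r.

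The difference between the HSC and the ESC effect could be tested for these 5 probe sets. It passed for Ms4a3, whose HSC effect lay below its ESC effect by a log2 difference of −0.65 ± 0.19 (SE, adjusted p = 0.0268), against 32.6% of 22829 probe sets called. That call was lost without each HSC array and without ESC Zfx-flox replicate 1, with adjusted p of 0.0918, 0.0592, 0.0824, 0.0699 and 0.0709 in the order Zfx-cko replicate 1 and 2, Zfx-flox replicate 1 and 2, ESC Zfx-flox replicate 1. For Lyz2 the difference was 0.69 ± 0.27 (adjusted p = 0.0775), and 0.39 to 0.98 over 15 alternatives. Its test rests on the same ESC filter as above. For Mpo the difference was 0.60 ± 0.29 (adjusted p = 0.15), and 0.30 to 0.90 over 18 alternatives.

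Across the 4 groups, HSC read above ESC for 11 of the 12 member probe sets, as a description without a test. The log2 difference of HSC Zfx-flox minus ESC Zfx-flox was −0.11 for the Csf1r probe set 1423593_a_at, 1.54 for Cebpa, 3.41 for Lyz2, 4.70 for Ms4a3 and 6.68 for Mpo. Ctsg and the Irf8 probe set 1448452_at were below the pseudocount on all 4 ESC arrays, so the size of their difference is set by the pseudocount and is not given.

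Other genes of the granulocyte-monocyte branch were counted by list, each gene by its brightest probe set. Over all 12533 genes tested in HSC in this way, 42% were called, 22.5% higher and 19.6% lower, with a median log2 change of 0.03. Of 8 tested genes of other azurophil granule proteins, 3 rose and 2 fell (median 0.15). Serpinb1a, an inhibitor of elastase, proteinase 3 and cathepsin G, was at 3160 ± 5.37 in Zfx-cko and 1116 ± 69.6 in Zfx-flox (SD, n = 2, log2 change 1.49 ± 0.18, adjusted p = 0.000197). The others called higher were the lysosomal hexosaminidase Hexa (0.39 ± 0.06) and Lyz1, whose probe set may read Lyz2 transcripts as said above, and Ctsd and Gusb, named after their values were seen, were the 2 that fell. Srgn, the proteoglycan that packs granule proteases, and Ctsc, the protease that activates them, did not pass (log2 changes of 0.17 ± 0.08 and 0.13 ± 0.06).

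Genes of later neutrophil stages were at or near background. Of 18 such genes 10 were too dim to test, among them Camp, Lcn2, Mmp8 and S100a9, and the summed signal of the list was 503 to 570 in Zfx-cko and 496 to 548 in Zfx-flox. Of the 8 tested, Ltb4r1 rose (log2 change 1.24 ± 0.43, adjusted p = 0.048) and Cybb, a subunit of the phagocyte oxidase, fell by 0.73 ± 0.18. Fcnb and Pglyrp1 did not pass.

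Among 14 tested transcription factors of the branch, 5 rose and none fell (median 0.20). Klf4, a factor of monocyte differentiation, was at 295 ± 19.3 in Zfx-cko and 69.0 ± 13 in Zfx-flox (log2 change 1.90 ± 0.14, adjusted p = 1.1e-05). Id2, an inhibitor of E proteins, rose by 1.79 ± 0.14 and Runx1 by 1.50 ± 0.12. Gfi1, a repressor needed for neutrophil development, and Zeb2 were the other 2 that rose, and were named after their values were seen. Myb (log2 change 0.17 ± 0.12) and Bcl11a (−0.45 ± 0.45) did not pass, nor did Spi1 (91.1 ± 19.2 in Zfx-cko and 59.6 ± 18.2 in Zfx-flox, adjusted p = 0.175), named because its motif is shown above.

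Of 16 tested receptors and surface proteins of the branch 11 rose and none fell, with a median log2 change of 0.85, and 9 to 12 rose across the alternatives. Flt3, the receptor of multipotent and lymphoid-primed progenitors, was at 1829 ± 101.5 in Zfx-cko and 329 ± 54.9 in Zfx-flox (log2 change 2.44 ± 0.14, adjusted p = 3.36e-06). It is not particular to the branch and is counted again in the lymphoid-primed list below. Cd34 rose by 1.62 ± 0.10 and the tetraspanin Cd53 by 1.38 ± 0.13, and neither is particular to the branch. The count of this list is therefore not one of genes found in the branch alone. The granulocyte colony-stimulating factor receptor Csf3r rose by 0.86 ± 0.20, and the receptor subunits Csf2ra, Csf2rb and Csf2rb2, which serve granulocyte-macrophage colony-stimulating factor and related cytokines, rose by 0.85 ± 0.17, 0.86 ± 0.22 and 1.19 ± 0.18. These 4 were named after their values were seen. Fcgr3, a surface marker by which granulocyte-monocyte progenitors are sorted, did not pass (172 ± 13.4 in Zfx-cko and 115 ± 15.0 in Zfx-flox, adjusted p = 0.216), nor did Il6ra.

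Of 23 tested monocyte and dendritic cell genes 8 rose and 3 fell (median 0.25). The surface antigen Cd52 (log2 change 1.68 ± 0.20), the signalling adaptor Tyrobp (1.47 ± 0.36) and the chemokine receptor Ccr2 (1.44 ± 0.25) rose most. F13a1 (−1.14 ± 0.19), Mpeg1 (−1.27 ± 0.19) and Sirpa (−0.63 ± 0.18) fell, named after their values were seen. The MHC class II genes H2-Aa and H2-Ab1 did not pass.

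**Figure D3:**
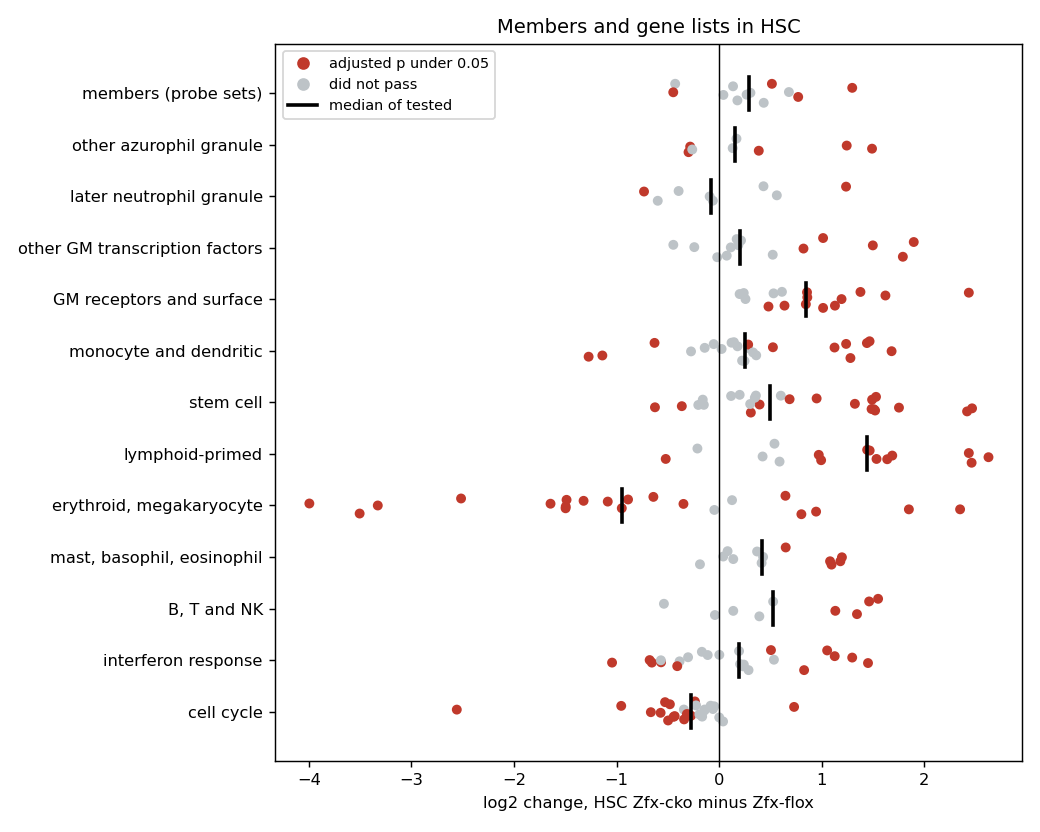
Log2 change in HSC, Zfx-cko minus Zfx-flox, of the 12 member probe sets and of the tested genes of 12 lists, 1 point per gene, coloured by the adjusted p, with a bar at the median. The erythroid and megakaryocyte list has its median at −0.95 and the lymphoid-primed list at 1.44, and the members lie between them at 0.29.

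Markers of other lineages differed between the same HSC arrays. Of 21 tested erythroid and megakaryocyte genes 14 fell and 5 rose (median −0.95), and the summed signal of the list was 18651 to 18704 in Zfx-cko and 40577 to 40611 in Zfx-flox. Rhag (−4.00 ± 0.31), Ermap (−3.51 ± 0.16) and Sphk1 (−3.33 ± 0.15) fell furthest. The platelet genes Gp9 and Pf4 were among the 5 that rose, which are given at the end and were named after their values were seen. Of 15 tested lymphoid-primed genes 10 rose and 1, Ikzf1, fell (median 1.44, summed signal 22544 to 23882 in Zfx-cko and 12315 to 12882 in Zfx-flox), led by Dntt (2.63 ± 0.19), Ccr9 and Flt3, and 6 rose without Zfx-cko replicate 1. Of 24 tested stem cell genes 13 rose and 2 fell (median 0.50, summed signal 32288 to 32659 in Zfx-cko and 19289 to 19520 in Zfx-flox), led by Procr (2.47 ± 0.12), Meis1 and Mecom. Of 27 tested cell cycle genes 15 fell and 1 rose (median −0.27, summed signal 83553 to 84165 in Zfx-cko and 102450 to 104857 in Zfx-flox), with Ccne1 lowest at −2.56 ± 0.16, and 7 fell without Zfx-flox replicate 2. The part of these shifts in the members' values was not tested. In such sorted populations a different share of cells carrying a transcript and a different amount per cell cannot be told apart.

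Likeness of pattern was measured as the root mean square distance between a member and each of the 12533 genes over the 8 arrays, on log2 values relative to the HSC Zfx-flox mean. The gap between HSC and ESC enters this distance, so it does not rank genes by their change in Zfx-cko. Nearest to Mpo were Myb (0.31), Jchain (0.42) and Frat2 (0.46), against a median distance of 4.87 over all genes. In HSC the log2 change, Zfx-cko minus Zfx-flox, was 0.17 for Myb, 0.69 for Jchain and −0.33 for Frat2, against 0.31 for Mpo. Nearest to Cebpa were Nsun6 (0.17), Zfp712 (0.17) and Arhgap18 (0.18), against a median of 1.21, and nearest to Irf8 were Mindy2 (0.17), Gimap9 (0.21) and Ifi27 (0.21), against 2.08.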

How the data were processed

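Scanning and raw processing of the Mouse Genome 430 2.0 arrays used GCOS 1.4, per the submitters' processing notes, and the deposited table holds linear intensities, 1 per probe set. The settings were not stated. All columns were assigned to a sample by label. Each array had been scaled to a trimmed mean of 250 (2% cut at each end), so no scaling was added.

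Intensities were taken as log2(value + 14.2), the pseudocount being the 25th percentile of all values, which understates changes of dim genes. The 64 control probe sets were left out. A probe set was tested in a cell type when its mean there reached the 40th percentile (27022 probe sets). Platform annotation gave 1 symbol to 34945 probe sets, several to 932 and none to 9160, and only those with 1 were named. A linear model of 4 group means over 8 arrays was fitted with limma 3.58.1 under R 4.3.3 (trended eBayes, 4 residual degrees of freedom), with p-values adjusted by Benjamini and Hochberg over all tested probe sets. The procedure was tested on simulated data, where it missed most of the changes simulated. Far fewer probe sets changed there than were called in HSC, so the share missed does not carry over. A p above the threshold still does not show that a probe set was unchanged. Depth has no meaning for arrays, and their number limits the precision.

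The members and 12 gene lists were chosen with earlier results of these data known. Chosen for naming were all members, Zfx and, per list, the called genes that changed most (at most 3) and the brightest that were not called (at most 2). Not all genes so chosen are given. No uncalled gene is given beside the counts of the erythroid and megakaryocyte, lymphoid-primed, stem cell, cell cycle, interferon and B, T and NK lists. For the cell cycle list only Ccne1 is given. Genes said to be named after their values were seen fall outside this rule. A gene's brightest probe set over all arrays stood for it. Arrays sharing a replicate number were checked for pairing through their replicate differences, which correlated at 0.04 between the HSC groups and at 0.24 between the ESC groups, and no block was used. Alternatives changed the pseudocount, scaling, filter, moderation, arrays, block and probe set choice.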

Additional observations from a re-analysis of the deposited data

Results flagged for a closer look

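Differences between the HSC and the ESC effect are given for 4 member probe sets, those where the difference passed its test or, untested, where the arrays separated in opposite directions in both cell types. For Ms4a3 the tested difference of HSC minus ESC effect was −0.65 on the log2 scale (HSC −0.45, ESC 0.21, adjusted p = 0.0268 in limma). For the others the difference was not tested, because the probe set was too dim in ESC. These were Elane (difference −0.67, HSC −0.43, ESC 0.24), Csf1r 1419873_s_at (0.38, HSC 0.14, ESC −0.24) and Irf8 1448452_at (0.52, HSC 0.44, ESC −0.09). The HSC value of Csf1r 1419873_s_at turned negative under each of the 3 other scalings (−0.05 to −0.04), so its direction is not settled, and it read 12.1 and 17.8 in ESC Zfx-null and 18.5 and 21.7 in ESC Zfx-flox. Elane in ESC read 17.4 and 14.1 in Zfx-null and 13.8 and 8.66 in Zfx-flox, and Irf8 1448452_at read 6.29 and 5.55 in Zfx-null and 6.86 and 7.47 in Zfx-flox, all near or below the pseudocount of 14.2.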

How the results depend on the processing

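Over 21 alternatives, 237 of 246 member values in HSC kept their direction, the exceptions being Prtn3 with median centring and 2 Csf1r probe sets. The calls of Lyz2 in HSC held in 21 alternatives, of Ctsg in 20, of Ms4a3 in 14 and of Cebpa in 12. In HSC the joint fit called 3 member probe sets higher and 1 lower. The counts were 8 and 2 with HSC arrays alone, 1 and 0 without a pseudocount, and 2 lower with quantile normalization within cell types, with median centring and with the mean of a gene's probe sets. Leaving out 1 array gave 2 to 4 higher and 0 to 1 lower, and the cause of the lost calls beyond the smaller number of arrays was not tested. Over all probe sets in HSC 5860 were higher and 4334 lower. With median centring 6689 were lower, and the share of calls that were higher was 36.9%, against 57.5% as deposited, while the median of all tested probe sets moved from 0.06 to −0.13. With 1 probe set per gene, where fewer features were tested, 2809 were higher and 2499 lower, with the mean of probe sets 2424 and 2065, and without 1 array 4055 to 5996 and 3198 to 4428. In ESC the 1 member called higher became 0 without a pseudocount, without a filter, with ESC arrays alone and without a variance trend, and 0 to 1 without 1 array. It was also 0 with the filter at the 60th percentile, with 1 probe set per gene and with the mean of probe sets, where Lyz2 was not tested, so no call could be made. For the difference between cell types, 0 members were called higher and 1 lower. These became 1 and 0 without a filter, and 0 lower without a variance trend. With the filter at the 60th percentile 0 members were tested, so the 0 lower there is no lost call. Leaving out 1 array gave 0 to 2 and 0 to 1. With the replicate block the members called stayed 3 and 1 in HSC, 1 higher in ESC and 1 lower for the difference, with 5935 higher and 4419 lower over all HSC probe sets. With 2 arrays a group, the replicate numbers cannot be shown to pair arrays. Signal over background limits the ESC values, where 7 of 12 member probe sets were not tested.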

Other observations

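Genes of other lineages and of the interferon response differed in HSC as well. Of 12 tested mast cell, basophil and eosinophil genes 5 rose and none fell (median log2 change 0.42), among them the mast cell carboxypeptidase Cpa3 (1.20 ± 0.29, SE), the high-affinity IgE receptor chain Fcer1a (1.18 ± 0.20) and Prg2 (1.10 ± 0.34), while Ms4a2 (0.08 ± 0.32) and Mcpt8 (0.41 ± 0.29) did not pass. The number that rose was 2 or 3 without any single HSC array. Of 9 tested B, T and NK cell genes 4 rose and none fell, among them Ptprcap (1.55 ± 0.16), Cd79b (1.46 ± 0.24) and Nkg7 (1.34 ± 0.42). Of 23 tested interferon response genes 6 rose and 5 fell (median 0.19, summed signal 19432 to 19890 in Zfx-cko and 21516 to 21929 in Zfx-flox). The antiviral genes Rsad2 (1.45 ± 0.13), Ifit1 (1.30 ± 0.20) and Ifit2 (1.13 ± 0.13) rose, whereas Gbp2 (−1.04 ± 0.09), Gbp3, Irf1, Ifih1 and Tap1 fell, these 5 named after their values were seen. The 5 that fell numbered 3 without HSC Zfx-cko replicate 1 or either HSC Zfx-flox array.

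Within the erythroid and megakaryocyte list the genes did not move together. The platelet chemokine Pf4 (1.85 ± 0.18), the platelet glycoprotein Gp9 (2.35 ± 0.29), Itga2b (0.95 ± 0.14), Nfe2 (0.65 ± 0.17) and Cnrip1 (0.80 ± 0.16) were the 5 that rose, and were named after their values were seen.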
